A study of Mus musculus with 4 samples.

Results

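Pax6, Sox1, Neurog2, Nes and Olig2 are 5 genes of the neural lineage, and they were examined here for binding of RAD21 in mouse embryonic stem cells (ESCs) and in embryoid bodies (EBs). They are 5 of 21419 autosomal protein-coding genes. The genes were taken by name, and every deposited RAD21 site within 100 kb of a gene body was assigned to it. This gave 11 of the 15311 ESC sites and 6 of the 11022 EB sites, or 13 distinct places, since 4 sites stood in both lists.

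The ESCs were of the R1/E line and were collected at day 0. The EBs, cell aggregates in which ESCs differentiate into many cell types at once, were grown from them in hanging drops and collected at day 12. Cells of both groups carried a Rad21 gene fused to GFP on a bacterial artificial chromosome beside their own Rad21 genes, and resistant clones had been sorted for GFP. Chromatin was precipitated with a goat antibody against GFP in the RAD21 libraries and with goat IgG in the controls, whose descriptions also call them input DNA. There was 1 library of each of the 4 kinds, so no replicate spread and no test were available, and each interval given is a 95% interval that covers counting error only. RNA was not analysed here, so the share of neural cells in the EBs and the activity of the 5 genes were not assessed.

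RAD21 is part of cohesin, a ring of proteins that embraces DNA and helps to fold chromosomes into loops, often at sites where the zinc finger protein CTCF is bound. Genes that direct development often lie in wide stretches of non-coding DNA that hold their distant enhancers, and loops can bring such enhancers and gene starts together or keep them apart. SOX1 and PAX6 are transcription factors of early neural progenitors, and SOX1 is among the first markers of the neural plate. NEUROG2 is a proneural factor that drives progenitors towards neurons, OLIG2 specifies motor neuron and oligodendrocyte progenitors, and Nes encodes nestin, an intermediate filament protein of neural stem cells.

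The sequences below show the CTCF motifs found at the sites on which the comparisons turn. All are from the mm9 build, on the strand of the motif, with the motif in capitals. A motif was called when a match to a learned CTCF matrix lay within 150 bp of the summit, the highest point of a site. The threshold was passed by 1e-04 of positions, and a stricter one by 1e-05. The first 5 sequences passed the stricter threshold and the last 3 only the wider one.
Nes site 1 (chr3:87739798-87739857, + strand): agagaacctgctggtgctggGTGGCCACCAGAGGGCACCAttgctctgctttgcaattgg
Nes site 3 (chr3:87774162-87774221, + strand): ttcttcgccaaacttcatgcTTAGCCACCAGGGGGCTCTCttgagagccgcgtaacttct
Nes site 4 (chr3:87791042-87791101, - strand): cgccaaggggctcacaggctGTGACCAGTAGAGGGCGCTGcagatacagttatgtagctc
Nes site 5 (chr3:87831884-87831943, + strand): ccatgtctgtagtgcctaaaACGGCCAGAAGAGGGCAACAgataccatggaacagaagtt
Olig2 site 1 (chr16:91218358-91218417, + strand): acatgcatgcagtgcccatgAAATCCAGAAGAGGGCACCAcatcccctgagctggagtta
Nes site 2 (chr3:87765029-87765088, - strand): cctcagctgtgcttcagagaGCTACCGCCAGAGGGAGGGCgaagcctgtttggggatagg
Sox1 site 1 (chr8:12391735-12391794, + strand): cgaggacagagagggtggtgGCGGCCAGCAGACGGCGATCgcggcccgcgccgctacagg
Neurog2 site 1 (chr3:127257846-127257905, - strand): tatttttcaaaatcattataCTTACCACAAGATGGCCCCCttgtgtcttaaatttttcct

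Of the 13 sites, 10 had a CTCF motif at the wider threshold, beside 85.2% of all 18504 distinct autosomal sites. At the stricter threshold 5 of 13 had one, beside 44.5% of all. The 3 sites without a motif were Sox1 sites 2, 3 and 4, and each of the other 4 genes had a motif at every one of its sites. Within 250 bp of the summit, 11 of the 13 had a match at the wider threshold. The best match at Sox1 site 2 within 150 bp scored 8.02, just under the limit of 8.41. Along the Nes region the 6 motifs alternated in orientation, beginning with the + strand at site 1 and ending with the - strand at site 6. In each of the 10 sites with a motif the summit lay on the 3′ side of the motif centre. The distance was 3.5 bp at Olig2 site 1, where the summit fell inside the motif, and 111.5 bp at Nes site 4. Over all autosomal sites with a motif, the summit lay on that side of the centre in 80.8% of ESC and 73.5% of EB sites. The side is given for the motif as printed above, and on the opposite strand the same summits lie 5′ of its centre.

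Short patterns of other factors were also looked up on both strands within 150 bp of the 13 summits. The POU factor pattern ATGCAAA stood at Neurog2 site 1 (6.38% of all distinct sites held it). The SOX factor pattern CATTGTT stood at Neurog2 site 1 and Pax6 site 1 (4.76% of all). The forkhead pattern TGTTTAC stood at Nes site 5 (4.44% of all). The patterns AAGGTCA for ESRRB and AGATAAG for GATA factors stood at none of the 13 sites, and at 5.0% and 3.59% of all.

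The autosomes held 13714772 reads in the ESC RAD21 library, 12602155 in the ESC IgG, 7740389 in the EB RAD21 and 6929293 in the EB IgG library. The EB libraries were thus shallower, and low EB counts carry wide intervals. Reads were counted within 250 bp of each summit and scaled to the autosomal reads of the library (RPM, reads per 1000000). In windows of that size away from any site, 95% held at most 7 reads in the ESC libraries and at most 4 in the EB libraries.

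An ESC site lay within 100 kb of 4 of the 5 genes, beside 82.3% of all autosomal protein-coding genes. An EB site lay near 3 of the 5, beside 73.6% of all. Nes had 5 ESC and 4 EB sites, Sox1 had 4 ESC sites and no EB site, Pax6 had 1 site in each list, Olig2 had 1 ESC site and Neurog2 had 1 EB site. Of the 11 ESC sites, 4 were also listed in EBs (48.6% of all autosomal ESC sites), and of the 6 EB sites, 4 were also listed in ESCs (68.3% of all autosomal EB sites). At least 4 ESC sites with no EB site, as found at Sox1, occurred at 1.22% of genes. That limit was taken from the Sox1 counts themselves, so the share is a description and no test of how unusual Sox1 is.

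**Figure D1:**
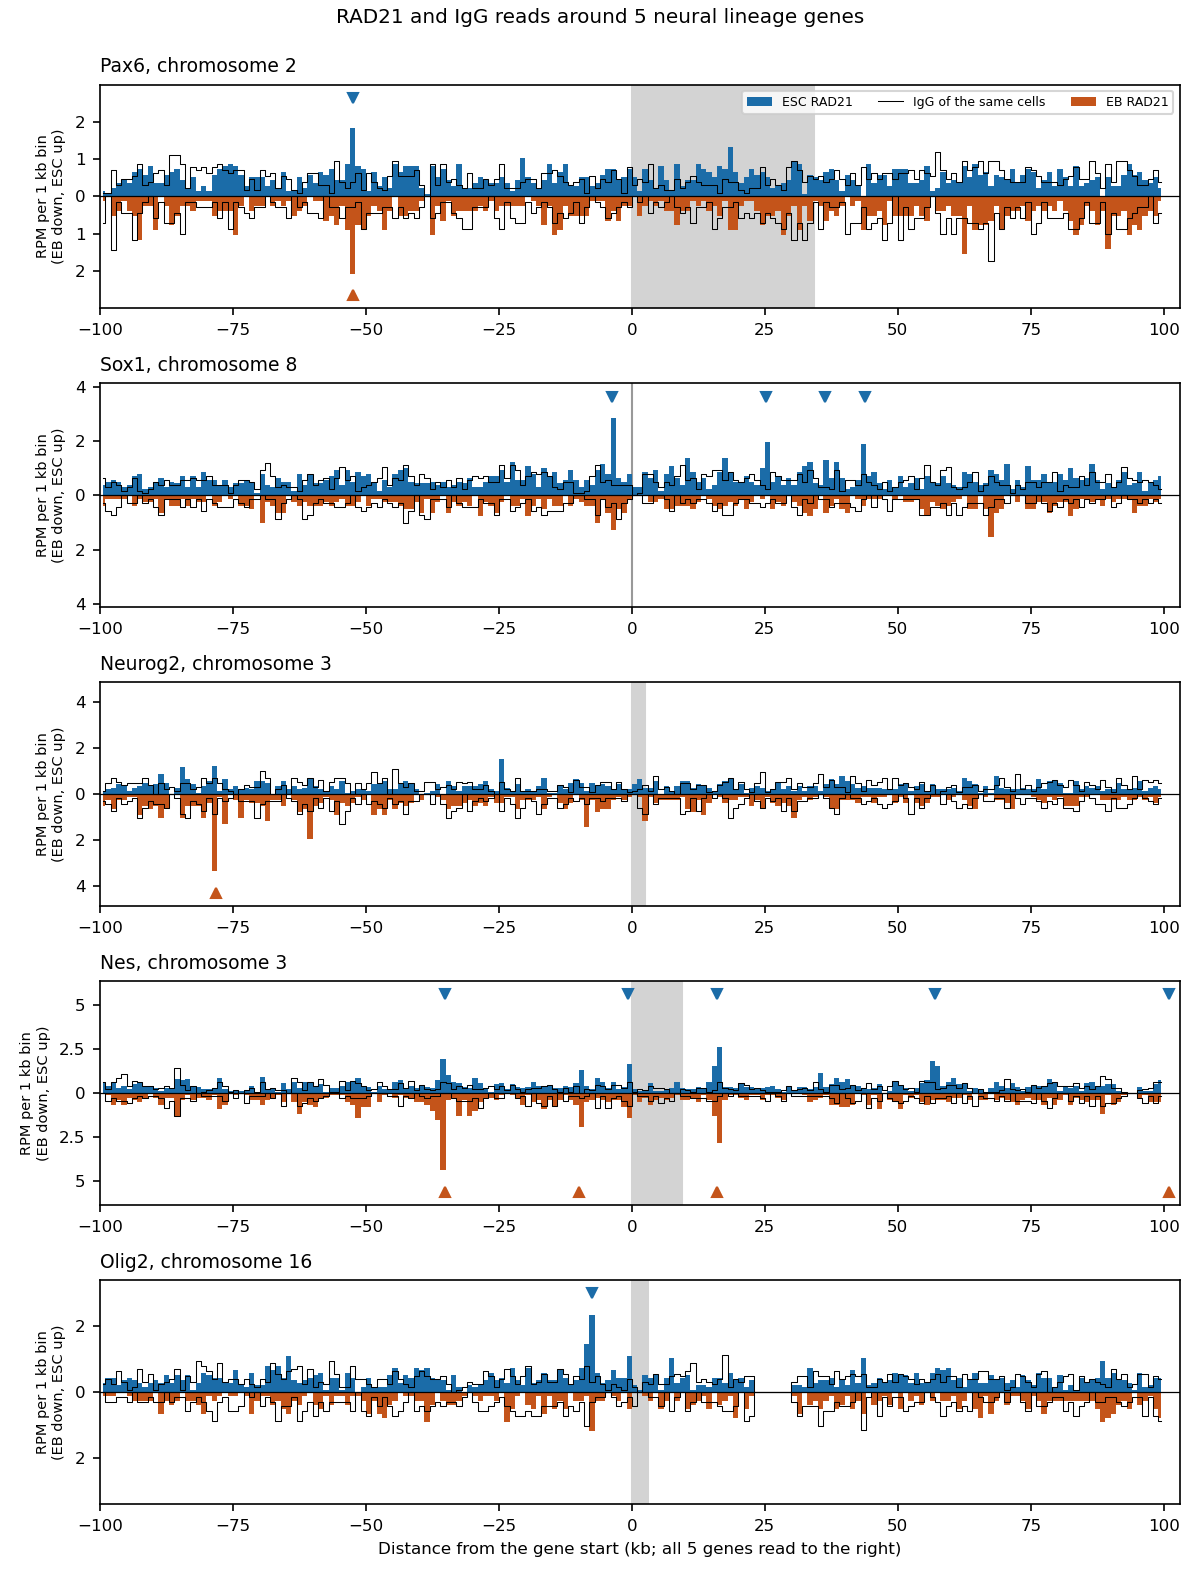
RAD21 reads (filled, RPM per 1 kb bin; ESC upwards in blue, EB downwards in orange) and IgG reads of the same cells (black lines) against the distance from the gene start in kb, for 5 genes. Triangles mark listed sites and grey the gene body (for Sox1 only the start, as a line); the 4 sites at Sox1 are marked in ESCs only, and the stretch without reads right of Olig2 had none in any of the 4 libraries. Reads are drawn to 100 kb, so that Nes site 6 has its triangles but no reads.

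Sox1 is not named in the GENCODE vM1 annotation. Its start was placed by an exact and unique match of its RefSeq promoter sequence to mm9, at position 12395519 of chromosome 8 on the + strand, inside the annotated gene Gm5607 (chr8:12385771-12436729). Site 1 (chr8:12391319-12392297) lay 3.679 kb before this start, in an intron of Gm5607. Site 2 (chr8:12420220-12421194) lay 25.256 kb past it in an intron as well, site 3 (chr8:12431398-12432045) 36.26 kb past it in an untranslated exon, and site 4 (chr8:12438990-12439631) 43.923 kb past it between genes.

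Sox1 site 1 held 33 reads in ESC RAD21 and 4 in ESC IgG, against 1 in EB RAD21 and 2 in EB IgG. RAD21 exceeded IgG 7.58-fold (2.70 to 29.5) in ESCs, and ESC RAD21 exceeded EB RAD21 18.6-fold (3.12 to 758). The EB count was no higher than the EB IgG count, while the ESC count stood well above its window limit of 7. Within 500 bp of the summit the ratio was smaller, at 2.57 (1.23 to 6.02), with 41 ESC and 9 EB RAD21 reads against 7 and 2 IgG reads.

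Sox1 site 2 held 24 reads in ESC RAD21, 3 in ESC IgG, none in EB RAD21 and 1 in EB IgG. With 0 EB reads taken to allow 3, RAD21 was at least 4.52-fold lower in EBs, and the exact lower limit of the ratio was 3.40. Sox1 site 4 held 17, 3, 1 and 0 reads in the same order, a ratio of 9.59 (1.50 to 401) of ESC over EB. Both sites therefore lay above the window limit in ESCs and below it in EBs.

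Sox1 site 3 held 15 reads in ESC RAD21, 1 in ESC IgG, 3 in EB RAD21 and 1 in EB IgG. Its ratio of ESC over EB was 2.82 with an interval of 0.798 to 15.2, so that a difference was not detectable at this depth. Within 500 bp the counts were 20 and 3 and the ratio was 3.76 (1.12 to 19.8).

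The IgG reads of EBs were also lower around Sox1. Over the 200 kb centred on the start, EB over ESC was 0.506 (0.456 to 0.559) for RAD21 and 0.583 (0.521 to 0.651) for IgG. Over the whole of chromosome 8 the ESC IgG reads exceeded the EB IgG reads 1.23-fold, the highest such ratio of the 19 autosomes. Scaled by the IgG reads of the same 200 kb, the ratio of ESC over EB was 10.6 (1.77 to 430) at site 1, had a lower limit of 1.93 at site 2, and was 1.60 (0.453 to 8.64) at site 3 and 5.45 (0.854 to 228) at site 4. The interval at site 4 then included 1. The part of the lower regional reads in the missing EB sites was not tested.

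Nes lies at chr3:87775000-87784373 on the + strand and had sites on both sides. Site 1 (chr3:87739413-87740279) lay 35.133 kb before the start in an intron of Isg20l2, a gene for an exonuclease of ribosomal RNA processing. Site 2 (chr3:87764878-87765414) lay between genes 9.963 kb before the start, and site 3 (chr3:87773931-87774717) 0.754 kb before it. Site 4 (chr3:87790457-87791741) lay 6.084 kb past the gene end, and the nearest gene start was that of Bcan, which encodes the brain proteoglycan brevican. Site 5 (chr3:87831473-87832476) lay 502 bp before the start of Hapln2, which encodes a link protein of the brain matrix, and site 6 (chr3:87875309-87876388) within 1 kb of a transcript start of Ttc24. Sites 3 and 5 were the 2 of the 11 ESC sites that lay within 1 kb of the start of a protein-coding gene, beside 3.16% of all autosomal ESC sites.

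Sites 4 and 6 of Nes were listed in both cell types at similar levels. Site 6 held 51 reads in ESC RAD21, 1 in ESC IgG, 24 in EB RAD21 and 0 in EB IgG, an EB over ESC ratio of 0.834 (0.491 to 1.38). Site 4 held 35, 3, 18 and 1 reads in that order, a ratio of 0.911 (0.486 to 1.65). Neither interval excluded 1, and they reached down to 0.491 and 0.486 and up to 1.38 and 1.65. The deposited ESC score of site 6 stood at the 98.7th percentile of autosomal ESC sites, and that of site 4 at the 90.7th. Their EB scores stood lower, at the 83.2nd and 82.7th percentiles of autosomal EB sites.

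Sites 1 and 2 of Nes were higher in EBs. Site 1 held 24 reads in ESC RAD21, 9 in ESC IgG, 29 in EB RAD21 and 0 in EB IgG, an EB over ESC ratio of 2.14 (1.20 to 3.84). The ESC IgG count was the highest among the 13 sites, and RAD21 exceeded IgG there 2.45-fold (1.10 to 5.99) in ESCs. In EBs it was at least 8.65-fold higher with 0 IgG reads taken to allow 3, and the exact lower limit was 6.60. Its score ranked at the 13.5th percentile of ESC sites and at the 85.5th of EB sites. Site 2, listed in EBs only, held 10, 1, 15 and 1 reads in the same order, a ratio of 2.66 (1.12 to 6.62). Its 10 ESC reads stood above the window limit of 7 although the ESC list did not hold it, and within 500 bp the counts were 17 and 17 and the ratio was 1.77 (0.850 to 3.69).

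Sites 3 and 5 of Nes were listed in ESCs only and differed from each other in their reads. Site 5 held 36 reads in ESC RAD21, 6 in ESC IgG, 4 in EB RAD21 and 2 in EB IgG, so that ESC exceeded EB 5.08-fold (1.82 to 19.6). Site 3, next to the gene start, held 20, 2, 8 and 2 reads, an EB over ESC ratio of 0.709 (0.270 to 1.68). The 8 EB reads at site 3 stood above the EB window limit of 4, and its absence from the EB list was not matched by a detectable fall in reads.

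Pax6 (chr2:105509053-105543317, + strand) had 1 site, at chr2:105456266-105457092, which lay 52.451 kb before the gene start in an intron of the antisense gene Pax6os1. It held 17 reads in ESC RAD21, 1 in ESC IgG, 15 in EB RAD21 and 1 in EB IgG. RAD21 exceeded IgG 15.6-fold (2.45 to 653) in ESCs and 13.4-fold (2.07 to 565) in EBs. EB over ESC was 1.56 (0.727 to 3.33), and no difference was detectable at this depth. Its scores ranked at the 24.8th percentile of ESC sites and the 36.2nd of EB sites.

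Neurog2 (chr3:127336054-127338549, + strand) had 1 site in the EB list only, at chr3:127257324-127258111. It lay 78.274 kb before the gene start, in an intron of 4930422G04Rik and 1373 bp from the start of that gene. It held 13 reads in ESC RAD21, 5 in ESC IgG, 17 in EB RAD21 and 3 in EB IgG. EB over ESC was 2.32 (1.06 to 5.19), and the interval included 1 when reads were scaled by the same chromosome. RAD21 exceeded IgG 5.07-fold (1.47 to 27.0) in EBs and 2.39-fold (0.799 to 8.56) in ESCs, where 13 reads stood above the window limit of 7.

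Olig2 (chr16:91225795-91228922, + strand) had 1 site in the ESC list only, at chr16:91217924-91218922, between genes and 7.404 kb before the gene start. It held 29 reads in ESC RAD21, 1 in ESC IgG, 5 in EB RAD21 and 2 in EB IgG. RAD21 exceeded IgG 26.6-fold (4.42 to 1088) in ESCs, and ESC exceeded EB 3.27-fold (1.25 to 10.8). The 5 EB reads stood just above the window limit of 4, and within 500 bp the counts were 32 and 9 and the ratio was 2.01 (0.936 to 4.78). Over the region of Olig2, EB over ESC was 0.689 (0.615 to 0.771) for RAD21 and 0.880 (0.788 to 0.982) for IgG.

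**Figure D2:**
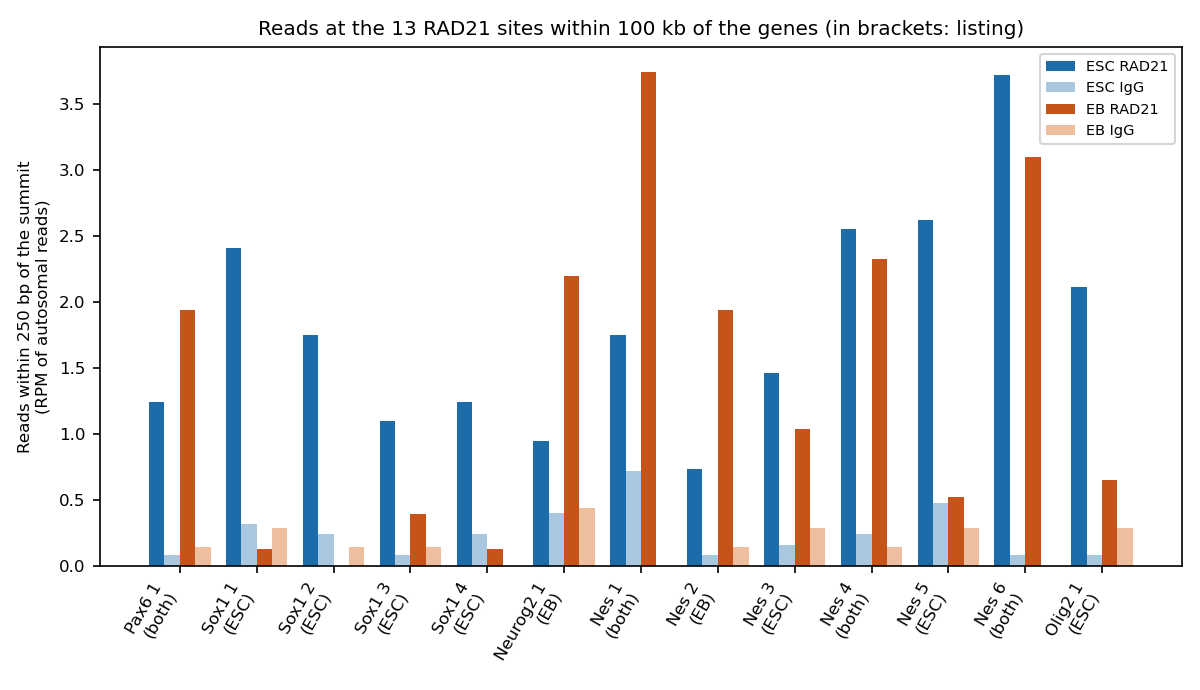
Reads within 250 bp of the summit in RPM at each of the 13 sites, in the 4 libraries (1 library each, no error bars); brackets give the list that holds the site. The EB RAD21 bar is lower than the ESC RAD21 bar at all 4 Sox1 sites, and at Nes sites 4 and 6 the bars of both cell types are alike.

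A fall of 2-fold or more in EBs, after adding 1 read to each count, was met at 6 of the 11 ESC sites, beside 28.7% of all autosomal ESC sites. These were the 4 Sox1 sites, Nes site 5 and Olig2 site 1, and without the Sox1 region there were 2 of 7. The median log2 ratio of EB over ESC reads was -1.18 at the 11 ESC sites and -0.27 at all autosomal ESC sites, and without the Sox1 region it was -0.23. At the 11 sites it was -0.36 when reads were scaled by the IgG reads of the same region, and -2.06 with IgG reads subtracted. The median of all autosomal ESC sites was not computed on either of these scales. The 7 sites held by the ESC list alone included these 6, and 55.0% of all ESC-only sites met the same limit. EB RAD21 reads above the window limit of 4 were found at 2 of these 7, Nes site 3 and Olig2 site 1, beside 53.8% of all ESC-only sites. The 3 sites without a CTCF motif within 150 bp, all at Sox1, were each lower in EBs by 2-fold or more, beside 42.7% of all autosomal ESC sites without one. They share 1 region, and at Sox1 site 3 the interval included 1. The log2 ratio of EB over ESC at that site was -0.86 scaled by the same chromosome and -0.36 scaled by the IgG reads of the region. A rise of 2-fold or more was met at 3 of the 6 EB sites, Nes sites 1 and 2 and Neurog2 site 1, beside 34.2% of all autosomal EB sites. The median log2 ratio was 0.80 at the 6 EB sites and 0.69 at all EB sites.

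**Figure D3:**
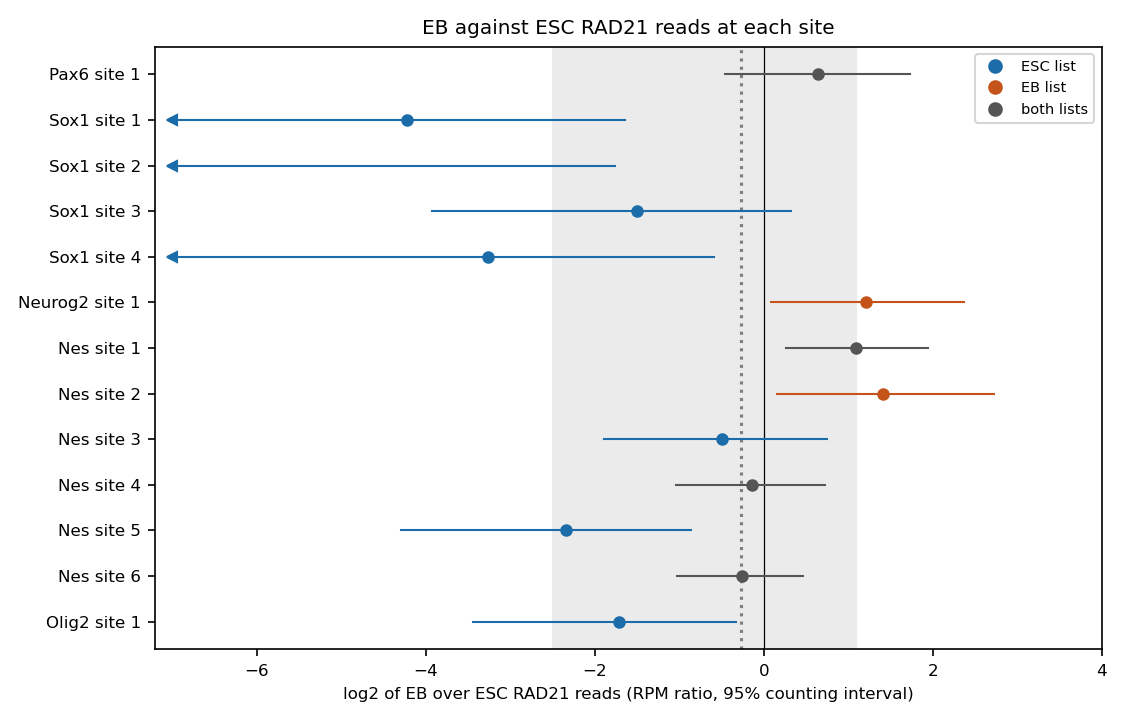
The log2 ratio of EB over ESC RAD21 reads (RPM) at each site, with its 95% counting interval as a line, coloured by the list that holds the site. Grey marks the 5th to 95th percentile and the dotted line the median (-0.27) of all autosomal ESC sites, arrowheads mark intervals that run past the axis, and Sox1 site 2 has no point because it had no EB read.

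The gene starts were measured within 1 kb on either side. RAD21 exceeded IgG by 2-fold or more in ESCs, after adding 1 read, at 4 of the 5 starts, beside 16.6% of all gene starts. In EBs this was met at 0 of 5, beside 25.6% of all, and at 2 of 5 when 0.1 RPM was added in place of 1 read. Within 500 bp of the start the counts were 3 of 5 in ESCs and 0 of 5 in EBs. Within 2 kb they were 3 and 1, and at the transcript start with the highest ratio 5 and 1. Summed over the 5 starts, RAD21 over IgG was 2.06 (1.39 to 3.10) in ESCs and 1.49 (0.695 to 3.35) in EBs, and these intervals overlap. In the ESC RAD21 library the order was Nes (26 reads), Olig2 (18), Pax6 (17), Sox1 (15) and Neurog2 (9), and no neighbours in that order differed beyond counting error.

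The start of Nes held 26 reads in ESC RAD21, 9 in ESC IgG, 12 in EB RAD21 and 5 in EB IgG. RAD21 exceeded IgG 2.65-fold (1.21 to 6.44) in ESCs and 2.15-fold (0.705 to 7.78) in EBs, and this window overlaps site 3. Only at Nes did the ESC interval lie above 1. The start was also the one with the smallest difference between the cell types, at an EB over ESC ratio of 0.818 (0.376 to 1.68).

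The start of Sox1 held 15 reads in ESC RAD21, 5 in ESC IgG, 1 in EB RAD21 and 1 in EB IgG, with RAD21 over IgG at 2.76 (0.952 to 9.70) in ESCs. EB over ESC was 0.118 (0.00281 to 0.768) for RAD21 and 0.364 (0.00769 to 3.25) for IgG. The start of Pax6 held 17, 14, 2 and 2 reads in the same order, so that RAD21 over IgG was 1.12 (0.518 to 2.44) in ESCs. Its EB over ESC ratio was 0.208 (0.0234 to 0.878) for RAD21 and 0.260 (0.0287 to 1.13) for IgG. At both starts the IgG reads were lower in EBs too, and their part in the RAD21 difference was not tested.

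The start of Olig2 held 18 reads in ESC RAD21, 7 in ESC IgG, 4 in EB RAD21 and 4 in EB IgG, with RAD21 over IgG at 2.36 (0.942 to 6.69) in ESCs and an EB over ESC ratio of 0.394 (0.0969 to 1.20). The start of Neurog2 held 9, 3, 1 and 0 reads, with RAD21 over IgG at 2.76 (0.688 to 15.8) in ESCs and an EB over ESC ratio of 0.197 (0.00449 to 1.42). Neither difference was detectable at this depth. Summed over the 5 starts, the libraries held 85, 38, 20 and 12 reads, and EB over ESC was 0.417 (0.243 to 0.685) for RAD21 and 0.574 (0.273 to 1.12) for IgG.

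**Figure D4:**
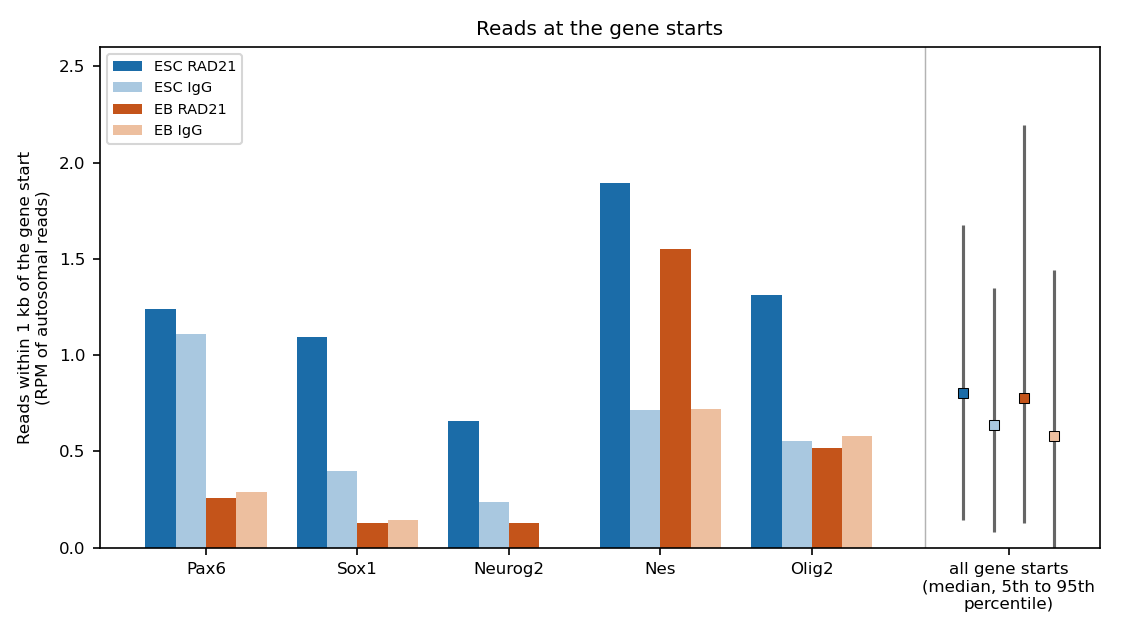
Reads within 1 kb of the gene start in RPM, for the 5 genes in the 4 libraries (bars, 1 library each) and for all 21419 autosomal protein-coding gene starts (squares, median; lines, 5th to 95th percentile). The EB RAD21 bars of Pax6, Sox1 and Neurog2 lie at or below 0.258 RPM, under the all-gene median of 0.775. That of Olig2 also lies under the median at 0.517, and that of Nes lies above it at 1.55.

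The starts of the 5 genes were rich in G and C, at 55.0% for Pax6 and 63.4% for Sox1 as the lowest and highest values. Of 5 classes of all gene starts by GC content, Pax6 and Olig2 fell in the fourth and Sox1, Neurog2 and Nes in the most GC-rich. The median log2 ratio of EB over ESC was 0.09 for RAD21 and -0.14 for IgG in the fourth class, and 0.06 and -0.14 in the most GC-rich. RAD21 exceeded IgG by 2-fold or more at 19.5% of starts in ESCs and 32.0% in EBs in the fourth class, and at 28.4% and 37.2% in the most GC-rich. In GENCODE vM1 the transcript models of Pax6 begin at 12 places more than 1 kb apart, which need not be separate promoters. Their windows overlap in part, and the IgG reads in ESCs ranged from 4 to 17 over them. At the start 7232 bp past the first, Pax6 had 6 reads in ESC RAD21, 4 in ESC IgG, 9 in EB RAD21 and 0 in EB IgG. It is named because its EB RAD21 count was the highest of the 12, and the start 20559 bp past the first had 8.

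Other genes with nearly the same reads at their starts in the 4 libraries were found for each member by the Euclidean distance of log2 RPM. They were Fcer2a for Pax6 (distance 0.121), Nmu and Gm5146 for Sox1 (0.087 and 0.093), Nos1 and Mybpc2 for Neurog2 (both 0), Arhgap42 and Med23 for Nes (0.107 and 0.216) and Tubb2a and Tril for Olig2 (0 and 0.074). Within a distance of 0.5 lay 176 genes for Olig2, 105 for Nes, 45 for Pax6, 16 for Neurog2 and 12 for Sox1. The likeness is a description over 4 libraries with counts as low as 0 and 1.

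Over the gene bodies with 100 kb on either side, RAD21 exceeded IgG most at Nes, 1.40-fold (1.29 to 1.53) in ESCs and 1.62-fold (1.44 to 1.84) in EBs. The other 4 regions ranged from 0.906 at Neurog2 to 1.19 at Sox1 in ESCs, and from 0.800 at Olig2 to 1.07 at Neurog2 in EBs. EB over ESC for RAD21 was 0.896 (0.824 to 0.973) at Pax6, 1.05 (0.945 to 1.16) at Neurog2 and 0.973 (0.889 to 1.07) at Nes.

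A wider list of 46 neural genes was counted in the same way. An ESC site lay within 100 kb of 42 of them (91.3%, beside 82.3% of all genes) and an EB site near 36 (78.3%, beside 73.6%). Among 26 genes of progenitors and patterning, 23 had an ESC and 18 an EB site. Among 9 proneural genes these were 8 and 9, and among 11 neuronal and glial genes 11 and 9. At their starts RAD21 exceeded IgG by 2-fold or more at 15 of the 46 in ESCs, beside 16.6% of all gene starts. In EBs this was met at 11 of the 46, beside 25.6% of all. Rbfox3, which encodes the neuronal nuclear antigen NeuN, had the most sites in both lists, with 8 in ESCs and 5 in EBs. Emx1, a transcription factor of the dorsal forebrain, had 7 ESC sites and 1 EB site, and Ncam1, a neural cell adhesion gene, had 7 and 3. Zic1 and Otx1, transcription factors of the neural plate and forebrain, had none in either list. Sox11 and Hes1 had 1 EB site and no ESC site, as Neurog2 did, and are named here after their values were seen. In the wider list 78.3% of genes had an EB site and 73.9% had sites in both lists, beside 73.6% and 70.1% of all genes.

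**Figure D5:**
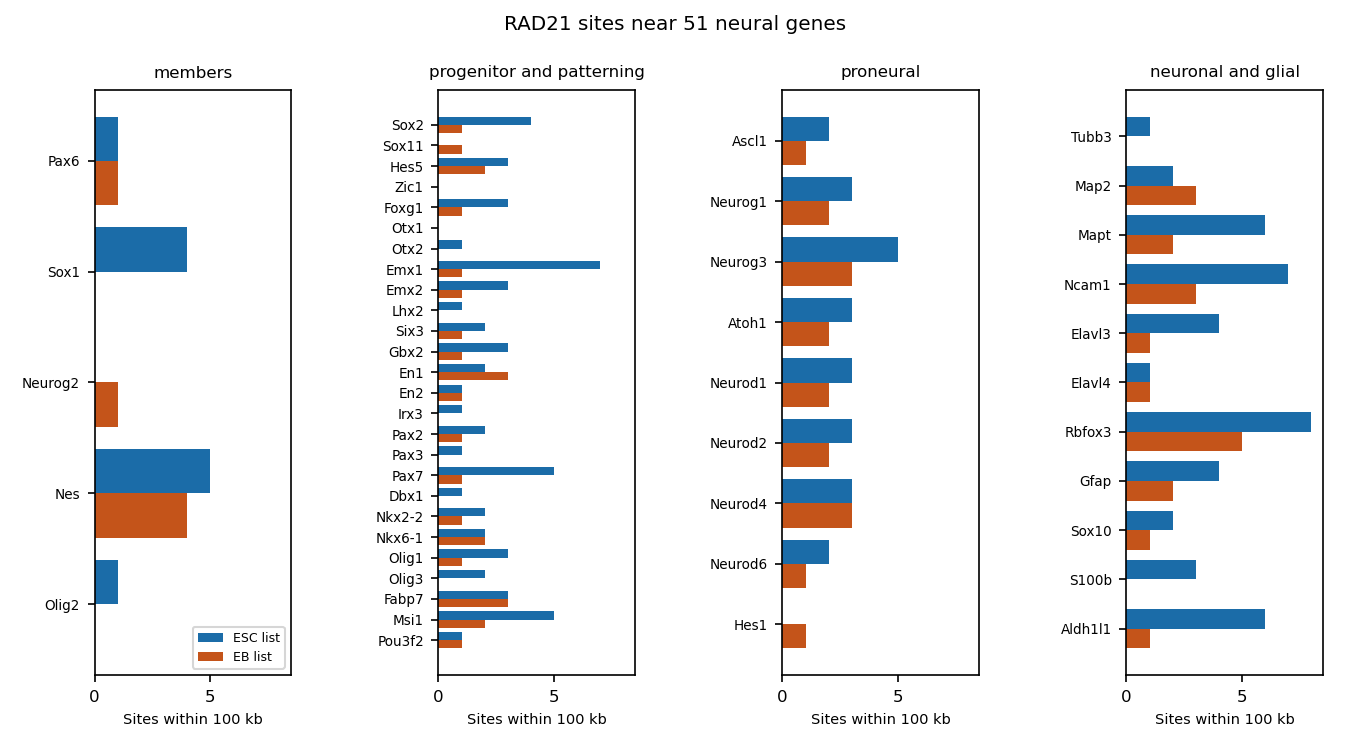
Number of deposited RAD21 sites within 100 kb of the gene body (bars, ESC list in blue and EB list in orange) for the 5 genes and the 46 genes of the wider list, by group. Sox1 has 4 ESC sites and no EB site, and Rbfox3 has the most sites of the 51 genes, 8 and 5.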

How the data were processed

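RAD21-GFP and IgG ChIP-seq libraries were compared in ESCs and EBs, with groups taken from the sample labels. The authors sequenced 35-base reads and deposited aligned reads on mm9, used here as read counts per window. The aligner is not given in the sources used here. The authors called peaks with MACS per cell type against its IgG library and deposited a score per peak (the log10 of the p-value multiplied by -10). The summit heights, a pile-up signal per library as deposited, were not used as values. The ESC IgG file held 7 broken lines and the EB IgG file broke off on chromosome X, so counts and scaling used autosomes.

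Reads were moved to the fragment centre (205 bp in ESCs and 196 bp in EBs, estimated from both strands) and counted with Python 3.11.15 and NumPy 2.4.6. Printed ratios are of RPM with exact (Clopper-Pearson based) intervals from SciPy 1.17.1. Calls of 2-fold used 1 added read, and 0 reads were taken to allow 3. Sites were shared at an overlap of 1 bp. Genes came from GENCODE vM1, and the Sox1 start from a RefSeq promoter (GRCm38.p6 table, 6 of 6 promoters of the members matched). A CTCF matrix of width 20 was learned on odd autosomes and scored on even ones, and the reverse. Counting and intervals were tested on simulated reads. Every site within 100 kb of the 5 genes was reported. From the wider list, genes with the most sites or none were named, and the 2 genes nearest to each member by reads at the start. One such gene is not reported here. The members and lists were chosen with earlier results of these data known. Alternatives concerned distances, scores, windows, scaling, pseudocount, IgG subtraction, read position, transcript start and motif threshold.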

Additional observations from a re-analysis of the deposited data

Results flagged for a closer look

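The 13 sites and the 5 gene starts were screened for a change of sign between the cell types. At 5 of these places the log2 ratio of RAD21 over IgG, after adding 1 read, was above 0 in ESCs and below 0 in EBs. The share of all sites or gene starts with such a change was not computed, so how common it is cannot be told. With 1 library of each kind the difference between the cell types was not tested. The intervals of the read ratio lay above 1 at both Sox1 sites in ESCs, which had been called on these same ESC reads. They included 1 at the 3 gene starts in ESCs and at all 5 places in EBs. At Sox1 site 1 the log2 ratio was 2.64 in ESCs and -0.75 in EBs, and at Sox1 site 2 it was 2.52 and -1.16. The EB value at site 1 rests on 1 RAD21 and 2 IgG reads, and within 500 bp of the same summit there were 9 and 2. At the start of Sox1 it was 1.29 and -0.16, at the start of Olig2 1.13 and -0.16, and at the start of Pax6 0.14 and -0.16. The value of -0.16 stands for equal EB read counts in RAD21 and IgG, which were 1 and 1 at Sox1, 2 and 2 at Pax6 and 4 and 4 at Olig2.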

How the results depend on the processing

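Of 65 comparisons of 13 results with an alternative, 47 stayed within 1.5 times the reported count or within a margin of the reported median. No median changed sign. The margin came from the counting interval of the ratio of reads summed over the sites, and no interval of the median itself was computed. The number of ESC sites was 25 within 200 kb, 5 at scores of at least 100 and 7 without the Sox1 region. The number of EB sites was 3 within 50 kb, 11 within 200 kb and 3 at scores of at least 100. Shared ESC sites numbered 2 at scores of at least 100 (of 5) and 2 within 50 kb (of 9), and shared EB sites 2 within 50 kb (of 3). The median log2 ratio at ESC sites was -2.06 with IgG subtracted, -0.36 scaled by the IgG reads of the region and -0.23 without the Sox1 region, where 2 of 7 ESC sites fell 2-fold. A 2-fold rise was met at 1 EB site with a window of 500 bp. EB gene starts past 2-fold numbered 1 within 2 kb, 2 with 0.1 RPM added and 1 at the highest transcript start. At the motif rate of 1e-05, 5 sites had a motif. The causes were not tested, beyond what fewer sites or a stricter limit fix by themselves. Scaling by regional IgG and leaving out Sox1 were chosen after seeing the data.

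No paired analysis was possible because each group had 1 library. The EB depth limits low counts, and differences inside the intervals given were not detectable.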
